A study of Mus musculus with 3 samples.

Results

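Single-cell RNA was measured in mouse lung in 3 droplet libraries, labelled PD00, Model and Control, with 1 library for each treatment and mice of 3 months of age in all of them. The series title names induction with ovalbumin (OVA) and a peptidomimetic called PD00. The labels do not say whether the PD00 mice also received OVA, how Control mice were treated, or how many animals a library holds, and every library is labelled as healthy lung. The cells described here were selected on their own UMI counts as capillary endothelial cells that carry both Car4 and Ednrb: kept cells with at least 1 UMI (unique molecular identifier, a count of 1 captured RNA molecule) of Cdh5 or Pecam1, at least 2 of Car4 and at least 1 of Ednrb, and with no UMI of the leukocyte gene Ptprc or the epithelial gene Epcam. There were 60 such cells in PD00, 77 in Model and 117 in Control, 254 of the 30973 kept cells. With 1 library per group no difference between treatments could be tested, so values are given with exact 95% intervals that cover counting error only, and an animal, a tissue piece and a treatment cannot be told apart.

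The gas-exchange capillaries of the mouse lung are built from a pair of endothelial cell types. Aerocytes, also called CAP2 or Car4-high cells, are large, thin cells that line most of the gas-exchange surface, and they are known by Car4, Ednrb, Fibin, Apln, Tbx2 and Emp2. General capillary cells, also called gCap or CAP1, are smaller cells known by Gpihbp1, Plvap, Kit and Aplnr, which regulate vascular tone and act as progenitors of both types in repair. The pair is linked by the apelin ligand, made by aerocytes, and its receptor Aplnr on general capillary cells, and aerocytes depend on epithelial VEGF-A that signals through Kdr. The cells were selected through Car4, carbonic anhydrase 4, which catalyses the hydration of carbon dioxide at the capillary surface (chr11:84957786-84966044, plus strand, GRCm38), and Ednrb, the type B receptor of endothelin (chr14:103814625-103844402, minus strand).

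Fibin (fin bud initiation factor, chr2:110360917-110363183) and Apln (apelin, chrX:48025146-48034853), which the selection did not use, were found in many but not all of the selected cells. Fibin was detected in 30 of 60 cells in PD00 (50%), 31 of 77 in Model (40.3%) and 65 of 117 in Control (55.6%). Apln was detected in 37 cells in PD00 (61.7%), 45 in Model (58.4%) and 91 in Control (77.8%). In leukocytes, cells with a Ptprc UMI and no Cdh5 or Epcam UMI in which these genes serve as a measure of free RNA, the highest level was 7.07 CPM (UMIs per 1000000 UMIs summed over a cell group of 1 library) for Fibin and 0.525 CPM for Apln, both in Control.

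The cells fell along a range that ran from aerocyte to general capillary genes. The summed UMIs of Gpihbp1, Plvap, Kit and Aplnr had a median of 9.04 per 10000 UMIs of a cell in PD00, 10.1 in Model and 17.9 in Control, while cells chosen as general capillary cells (Gpihbp1 of at least 2, Ednrb at 0) had medians of 35.0 in PD00, 34.1 in Model and 37.9 in Control. At most 5 of these UMIs per 10000 were held by 27 cells in PD00, 34 in Model and 38 in Control. These 99 are called Gpihbp1-poor cells here, and the other 155 Gpihbp1-rich cells; the split was made after the values had been seen, and it cuts a range, with 5 PD00, 4 Model and 4 Control cells between 5 and 10. Because the Gpihbp1-rich cells carried general capillary genes beside Car4 and Ednrb, the 254 cells are called Car4+ Ednrb+ cells and not aerocytes.

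**Figure D1:**
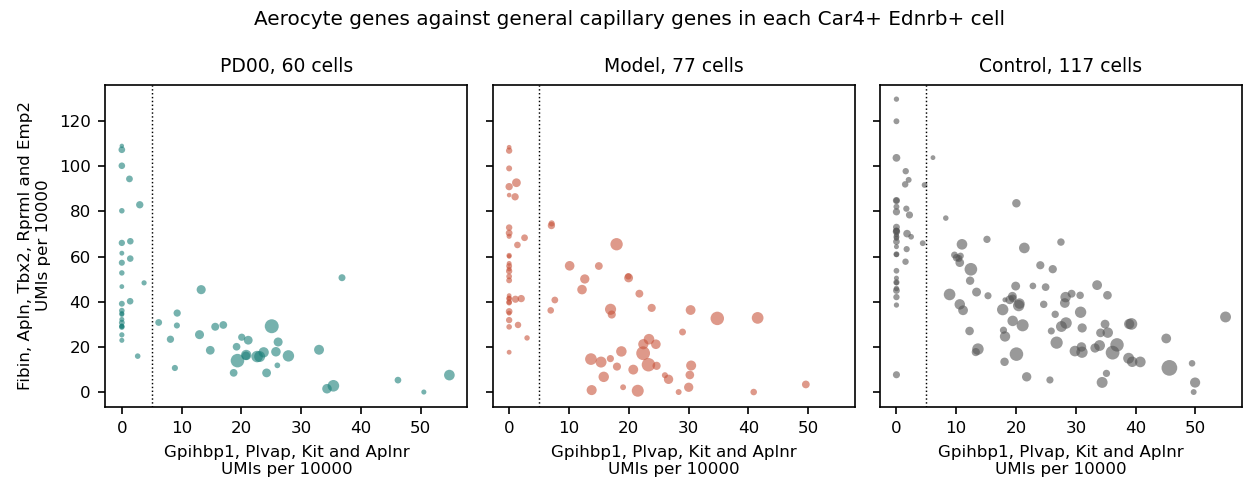
Each point is 1 Car4+ Ednrb+ cell, with its UMIs of 5 aerocyte genes per 10000 (y axis) against its UMIs of 4 general capillary genes per 10000 (x axis), and larger points for cells with more UMIs. The dotted line at 5 divides the 27, 34 and 38 Gpihbp1-poor cells of PD00, Model and Control from the rest, and few cells lie between 5 and 10.

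Aerocyte genes were found in both groups, and some Gpihbp1-rich cells held them at levels within the range of Gpihbp1-poor cells. The Gpihbp1-poor cells had the higher summed levels of Apln and Emp2 in each library. Their Apln level was 303 CPM in PD00, 250 in Model and 297 in Control, against 87.4, 85.1 and 157 in the Gpihbp1-rich cells of PD00, Model and Control. Emp2, a membrane protein of thin lung cells, was at 4987 in PD00, 4854 in Model and 5505 in Control in Gpihbp1-poor cells, against 1479, 2034 and 2442 in the Gpihbp1-rich cells of these libraries. Vwf, von Willebrand factor of larger vessels, had 0 UMIs in PD00, 2 in Model and 1 in Control in Gpihbp1-poor cells, although the split did not use it. Gpihbp1-poor cells held fewer UMIs (115690 in PD00, 175920 in Model and 221996 in Control in sum), with median totals of 3613 UMIs in PD00, 4619 in Model and 5230 in Control, against 16524, 18982 and 18971 in Gpihbp1-rich cells, which therefore dominate any sum over all Car4+ Ednrb+ cells. Whether Gpihbp1-rich droplets hold 1 cell or an aerocyte with a general capillary cell was not tested; a doublet score of at least 0.2 (Scrublet) marked 0 of 33 in PD00, 2 of 43 in Model and 0 of 79 in Control.

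Over all Car4+ Ednrb+ cells the summed UMIs were 710617 in PD00, 1022475 in Model and 1852771 in Control, with medians per cell of 7710, 9452 and 11819. The whole libraries were of like depth, between 80288883 and 83281019 UMIs. Median mitochondrial shares were 4.16% in PD00, 4.06% in Model and 3.96% in Control, and pairs of libraries shared 29 to 42 cell barcodes, 2 of which were Car4+ Ednrb+ cells in 1 of the libraries. Leukocyte genes were found in these droplets at unequal levels, and free RNA and captured leukocytes cannot be told apart as their source. Chil3, a chitinase-like protein of alveolar macrophages, was at 1946 CPM in PD00, 1450 in Model and 39.4 in Control, while leukocytes held 44530 in PD00, 31030 in Model and 796 in Control. The macrophage and monocyte marker list summed to 2311 in PD00, 1797 in Model and 519 in Control, and the lymphocyte list to 57.7, 74.3 and 49.1. At most 2 UMIs over 7 leukocyte genes (Tyrobp, Fcer1g, Lyz2, Cd52, Coro1a, Rac2 and Ltb) were held by 36 Car4+ Ednrb+ cells in PD00, 42 in Model and 39 in Control, and these cells are called leukocyte-gene-limited below. They are 36 of 60, 42 of 77 and 39 of 117 cells, and hold 253170 UMIs in PD00, 299398 in Model and 273007 in Control. The limit is a raw count, which cells with few UMIs meet more easily, and it kept an unequal part of each library. The depth and mix of the kept cells can therefore change with it as well, and this was not tested. Those that remain are described with this in mind. Leukocyte RNA was not evened out in them: the median log2 ratio of the macrophage and monocyte markers was 2.57 for PD00 over Control and 2.61 for Model over Control. Over all Car4+ Ednrb+ cells it was 0.16 and -0.54, taken over the 7 and 8 of 17 markers with at least 50 UMIs over both sums. The limited sums are smaller and need not measure the same markers, so the medians of these cell sets do not compare directly.

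Car4+ Ednrb+ cells made up 0.622% of kept cells in PD00 (0.475 to 0.800), 0.667% in Model (0.527 to 0.834) and 1.20% in Control (0.990 to 1.43). The ratio of shares was 0.558 for Model over Control (0.413 to 0.751), 0.520 for PD00 over Control (0.375 to 0.716) and 0.932 for PD00 over Model (0.654 to 1.32). Of all cells that met the endothelial criteria they were 19.6% in PD00, 15.4% in Model and 28.7% in Control, with a Model over Control ratio of 0.536 (0.397 to 0.720). The PD00 over Control ratio of that share was 0.682 (0.491 to 0.939), but 0.806 (0.579 to 1.11) when each cell had to hold a Cdh5 UMI. The ratio left out 1 in the Gpihbp1-rich cells, at 0.462 for Model over Control (0.311 to 0.678) and 0.424 for PD00 over Control (0.273 to 0.644). Gpihbp1-poor cells were 0.280% of kept cells in PD00, 0.295% in Model and 0.388% in Control. Their ratios were 0.759 for Model over Control (0.464 to 1.24) and 0.721 for PD00 over Control (0.423 to 1.21). Both intervals hold 1 and overlap those of the Gpihbp1-rich cells, and the difference between these cell groups was not tested. General capillary cells numbered 49 in PD00, 32 in Model and 93 in Control. They were fewest in Model, whereas Car4+ Ednrb+ cells were fewest in PD00, and both were most numerous in Control. The cells that met the endothelial criteria numbered 306, 500 and 407 in these libraries, so a low share in Model was not particular to Car4+ Ednrb+ cells. Fewer cells and less RNA per cell both lower a count by a UMI threshold: when cells were thinned to 2000 UMIs, which left out 2189 shallower cells in PD00, 2984 in Model and 1341 in Control, 36 cells in PD00, 38 in Model and 78 in Control met the rule among the remaining cells, with ratios of 0.481 for Model over Control and 0.523 for PD00 over Control. At the threshold, exactly 2 Car4 UMIs were held by 5 cells in PD00, 6 in Model and 4 in Control, and 10, 10 and 6 cells just missed with 1 UMI; exactly 1 Ednrb UMI was held by 12, 16 and 15, and 29, 63 and 37 cells had met every other criterion with none.

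In what follows, levels are CPM of the summed UMIs of a library's Car4+ Ednrb+ cells, and a ratio is called higher or lower where the 2 sums hold at least 50 UMIs of the gene, the ratio is at least 1.5-fold and its interval leaves out 1. Model over Control, PD00 over Model and PD00 over Control share libraries, so they are not independent of each other, and the values of each are given side by side.

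Most genes that define aerocytes were not called between Model and Control, and a group of them was lower in Model. Of 29 measured genes of the aerocyte identity list, 7 were lower and 2 higher in Model than in Control, against 6.75% lower and 4.23% higher among all 6859 genes measured in that comparison; their median log2 ratio was -0.13, against -0.07 for all genes. Fibin had 91.5 CPM in PD00, 72.4 in Model and 136 in Control, a Model over Control ratio of 0.534 (0.406 to 0.695). Hpgd, which breaks down prostaglandins, had 646 CPM in PD00, 512 in Model and 949 in Control (Model over Control 0.539, 0.488 to 0.594). Cyp4b1, a monooxygenase of fatty acids and foreign compounds, had 581 CPM in PD00, 477 in Model and 792 in Control (Model over Control 0.602, 0.543 to 0.668). All 3 were highest in Control and lowest in Model. They were also called lower in Model in the Gpihbp1-poor cells, at 0.527 for Fibin, 0.404 for Hpgd and 0.494 for Cyp4b1. Of 25 identity genes measured in those cells, 9 were lower and 2 higher in Model, against 19.1% lower and 5.84% higher among all genes there. The list median there was -0.25, near the -0.21 of all genes. In leukocyte-gene-limited cells the Fibin log2 ratio for Model over Control was -2.01. In the Gpihbp1-poor cells Hpgd and Cyp4b1 were called higher in PD00 than in Model, at 1.83 (1.36 to 2.48) and 1.52 (1.19 to 1.95).

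A further set was lowest in PD00. Rprml, a relative of the cell-cycle protein reprimo, had 99.9 CPM in PD00, 145 in Model and 253 in Control, and a PD00 over Control ratio of 0.395 (0.303 to 0.507). Sept4, a septin of the cytoskeleton, had 170 CPM in PD00, 326 in Model and 483 in Control, with ratios of 0.353 for PD00 over Control (0.289 to 0.427) and 0.523 for PD00 over Model (0.421 to 0.646). Tbx2, a T-box transcription factor, had 166 CPM in PD00, 264 in Model and 248 in Control, and was lower in PD00 than in Model at 0.629 (0.502 to 0.783). In Gpihbp1-poor cells Rprml had 19 UMIs in PD00, 51 in Model and 119 in Control, and Sept4 had 35, 82 and 169; for both genes the order of the libraries was the same as over all Car4+ Ednrb+ cells. Apln fell to 114 CPM in Model, against 174 in Control (0.653, 0.523 to 0.810), but its level in Gpihbp1-poor cells was 0.841 of Control (0.561 to 1.25), an interval that holds 1. Apoe, the apolipoprotein, was lower in Model at 0.405, but 285 of its 514 Control UMIs lay in 1 cell.

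Most of the remaining identity genes were not called in any comparison of all Car4+ Ednrb+ cells. Kdr, the main VEGF receptor of endothelium, had 1151 CPM in PD00, 1478 in Model and 1513 in Control. Emp2 had 2050 CPM in PD00, 2519 in Model and 2809 in Control, and Clic5, a chloride channel protein that binds the cytoskeleton, had 1133, 1046 and 902. Prx, a scaffold protein known from Schwann cells and lung capillaries, had 569 CPM in PD00, 516 in Model and 431 in Control. Each of these stayed within 1.5-fold between libraries. Kcnk3, a potassium channel, was higher in Model than in Control at 1.76 with 31.3 against 17.8 CPM, but had 0 UMIs in the Gpihbp1-poor cells of every library.

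**Figure D2:**
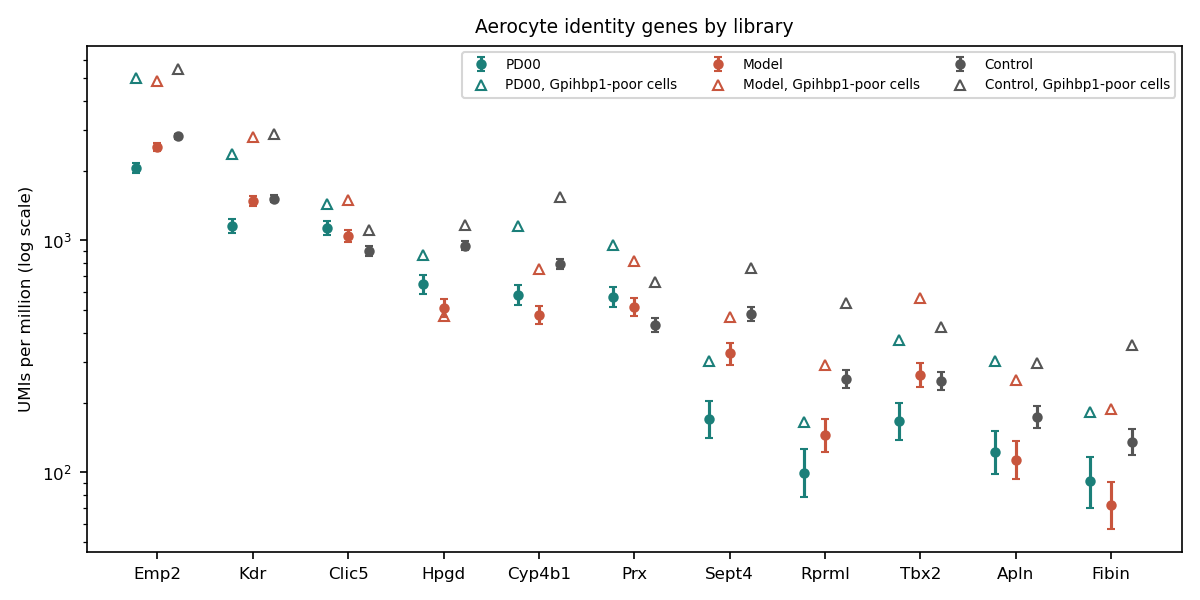
Levels of 11 aerocyte identity genes in CPM (log axis) in PD00, Model and Control; filled points are all Car4+ Ednrb+ cells with exact 95% Poisson intervals and open triangles are the Gpihbp1-poor cells. Fibin is lower in Model (72.4) than in Control (136), Rprml and Sept4 are lowest in PD00, and the triangles lie above the points for most genes, as for Emp2 and Apln.

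The comparison of Model with Control bears on the induction that the title names. Of 6859 genes measured, 290 were higher (4.23%) and 463 lower (6.75%) in Model, and in the Gpihbp1-poor cells 82 (5.84%) and 268 (19.1%) of 1405. In general capillary cells 4.29% of 2543 genes were higher and 14.7% lower. Scaled by the median of ratios, the counts over all Car4+ Ednrb+ cells were 407 higher and 312 lower. The genes with the clearest gains were serine protease inhibitors and guanylate-binding proteins that interferon induces, the thrombin receptor F2r, the semaphorin Sema7a and the lysosomal enzyme Ppt1. Serpina3g, an inhibitor of cysteine and serine proteases, had 318 CPM in PD00, 548 in Model and 57.8 in Control, a Model over Control ratio of 9.48 (7.70 to 11.8), while leukocytes held at most 21.2 CPM of it. Its relative Serpina3f had 63.3 CPM in PD00, 88.0 in Model and 29.2 in Control (3.02). Gpihbp1-poor cells held 3 UMIs of Serpina3g in PD00, 17 in Model and 1 in Control, too few for a call, and general capillary cells had a Model over Control ratio of 6.25 (4.30 to 9.17).

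F2r, the thrombin receptor PAR1 (chr13:95601803-95618487, minus strand), had 99.9 CPM in PD00, 180 in Model and 52.4 in Control, with ratios of 3.44 for Model over Control (2.67 to 4.44) and 0.555 for PD00 over Model (0.416 to 0.734). In Gpihbp1-poor cells F2r had 11 UMIs in PD00, 50 in Model and 16 in Control, a Model over Control ratio of 3.94 (2.21 to 7.42) and a PD00 over Model ratio of 0.335 (0.157 to 0.651). General capillary cells held 9 UMIs in PD00, 5 in Model and 21 in Control, with a Model over Control ratio of 0.835 (0.246 to 2.27); this interval overlaps that of the Gpihbp1-poor cells, and the difference between the cell types was not tested. In Gpihbp1-rich cells F2r was at 101 CPM in PD00, 158 in Model and 49.7 in Control. F2r was thus highest in Model in Gpihbp1-poor and in Gpihbp1-rich cells, and its PD00 over Control ratio in Gpihbp1-poor cells was 1.32 (0.554 to 3.03). In leukocyte-gene-limited cells the log2 ratio of F2r was 0.91 for Model over Control and -0.19 for PD00 over Model, whose ratio interval then held 1 (0.508 to 1.5).

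Sema7a, a membrane-anchored semaphorin (chr9:57940112-57962865, plus strand), had 432 CPM in PD00, 349 in Model and 113 in Control, and was higher than in Control in both Model (3.08, 2.59 to 3.67) and PD00 (3.81, 3.19 to 4.57). Gpihbp1-poor cells gave 2.57 for Model over Control and 3.19 for PD00 over Control, and general capillary cells 3.89 and 3.85, while leukocytes held at most 8.07 CPM. Ppt1, palmitoyl-protein thioesterase of the lysosome, had 214 CPM in PD00, 317 in Model and 102 in Control, and its Model over Control ratio was 3.11 (2.59 to 3.74) over all Car4+ Ednrb+ cells and 4.06 (2.71 to 6.24) in Gpihbp1-poor cells. In leukocyte-gene-limited cells the Sema7a log2 ratio was 1.7 for PD00 over Control, 1.02 for Model over Control and 0.69 for PD00 over Model, the last with a ratio interval of 1.24 to 2.1. Sema7a thus stood above Control in PD00 and in Model, whereas Ppt1 and F2r were closer to Control in PD00 than in Model.

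**Figure D3:**
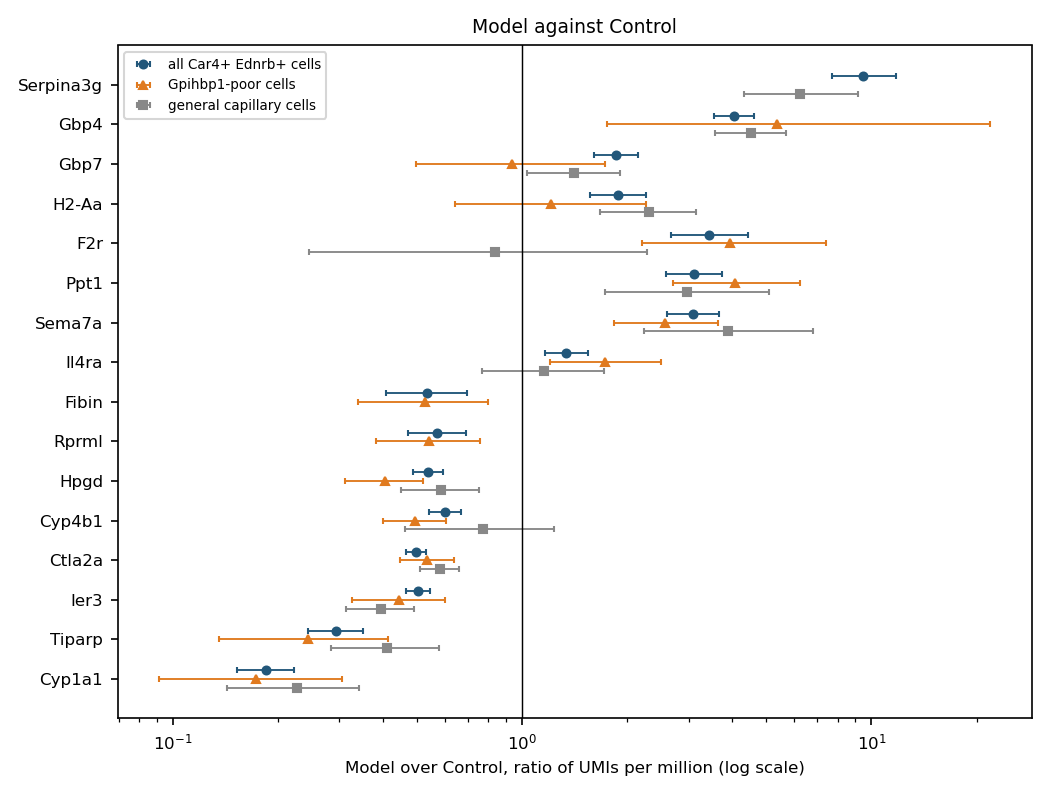
Ratios of CPM, Model over Control (log axis, 1 marked by a line), with exact 95% counting intervals for all Car4+ Ednrb+ cells, Gpihbp1-poor cells and general capillary cells; genes with few UMIs or a count of 0 in a cell group have no point there. F2r, Ppt1 and Sema7a are above 1 in Gpihbp1-poor cells (3.94, 4.06 and 2.57), and Cyp1a1 (0.173) and Tiparp (0.244) are below 1.

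A part of the interferon-responsive genes was called higher in Model than in Control, and a part lower in PD00 than in Model. Of 27 measured genes of the interferon list, 8 were higher and 0 lower in Model than in Control (median log2 0.43), against 4.23% higher and 6.75% lower among all genes. Of 25 measured in the other comparison 9 were lower and 0 higher in PD00 than in Model (median -0.39), against 4.41% lower and 4.18% higher among the 5188 genes measured there. Gbp4, a guanylate-binding protein of cell-autonomous immunity, had 339 CPM in PD00, 747 in Model and 185 in Control, with ratios of 4.04 for Model over Control (3.55 to 4.60) and 0.454 for PD00 over Model (0.391 to 0.525). Gbp6, of the same family, had 60.5 CPM in PD00, 127 in Model and 34.5 in Control (Model over Control 3.68). Wars, an interferon-induced tRNA synthetase, had 121 CPM in PD00, 261 in Model and 130 in Control, and its PD00 over Control ratio was 0.930 (0.719 to 1.20), an interval that holds 1. Of 8 measured guanylate-binding proteins, a list added after values had been seen, 7 were higher in Model than in Control. In leukocyte-gene-limited cells the median of the interferon list in Model against Control was -0.03, whereas that of the guanylate-binding proteins was 1.4 and the log2 ratio of Gbp4 was 3.11.

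Gpihbp1-poor cells held too few UMIs for most of these genes. Of 9 interferon genes measured there, 0 were higher and 2 lower in Model than in Control (median -0.43). Among all genes there 5.84% were higher and 19.1% lower (median -0.21), so the count lower was near that share. No guanylate-binding protein reached 50 UMIs over both sums. Gbp4 had 16 UMIs in PD00, 17 in Model and 4 in Control there, a Model over Control ratio of 5.36 (1.75 to 21.9) below the minimum for a call. Gbp7 had 19 UMIs in PD00, 20 in Model and 27 in Control in these cells, a Model over Control ratio of 0.935 (0.497 to 1.73), whereas it had 160 CPM in PD00, 378 in Model and 204 in Control over all Car4+ Ednrb+ cells (1.85, 1.61 to 2.14). The difference between Gpihbp1-poor and Gpihbp1-rich cells was not tested. In leukocytes the interferon list had a median of -0.92 in PD00 against Model, against 0.01 for all genes, with 26 of 33 lower. In Model against Control its median was 0.11, against -0.09 for all genes, with 4 higher and 4 lower. The share called among all leukocyte genes was not calculated, so these leukocyte counts have no share to be set against. General capillary cells also had 4 higher and 4 lower, of 22 measured, in Model against Control (median 0.05), against 4.29% higher and 14.7% lower among all genes there. Gbp4 in leukocytes was at 14.2 CPM in PD00, 26.4 in Model and 22.2 in Control, below its level in Car4+ Ednrb+ cells.

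The RefSeq windows from 250 bases before to 50 after the start (GRCm38.p6) were searched for the core of the interferon-stimulated response element, GAAA followed by any 2 bases and again GAAA, or TTTC in place of GAAA for the other strand. The motif is found in 1131 of 32851 such windows (3.44%). Of the 10 guanylate-binding proteins listed, 4 had a window (Gbp2, Gbp3, Gbp5 and Gbp7) with 5 windows in all, of which 4 held the motif, 1 for each gene, since Gbp3 has a second window without it. This is a description of these letters and not of a bound site. The windows of Gbp2 (chr3:142620413-142620712), Gbp5 (chr3:142496684-142496983) and Gbp7 (chr3:142530086-142530385), all on the plus strand, are shown because these genes were called higher in Model, with the motif in capitals:
Gbp2: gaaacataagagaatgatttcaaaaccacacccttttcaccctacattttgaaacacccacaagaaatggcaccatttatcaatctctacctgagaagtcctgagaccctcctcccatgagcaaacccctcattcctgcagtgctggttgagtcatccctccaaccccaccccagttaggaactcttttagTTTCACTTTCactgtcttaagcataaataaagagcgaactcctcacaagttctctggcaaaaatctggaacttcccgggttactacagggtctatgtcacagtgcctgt
Gbp5: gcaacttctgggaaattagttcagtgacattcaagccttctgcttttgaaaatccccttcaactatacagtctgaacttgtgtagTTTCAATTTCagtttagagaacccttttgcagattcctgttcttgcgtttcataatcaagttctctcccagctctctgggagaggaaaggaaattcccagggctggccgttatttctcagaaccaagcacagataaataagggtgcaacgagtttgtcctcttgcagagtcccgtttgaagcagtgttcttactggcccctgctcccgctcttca
Gbp7: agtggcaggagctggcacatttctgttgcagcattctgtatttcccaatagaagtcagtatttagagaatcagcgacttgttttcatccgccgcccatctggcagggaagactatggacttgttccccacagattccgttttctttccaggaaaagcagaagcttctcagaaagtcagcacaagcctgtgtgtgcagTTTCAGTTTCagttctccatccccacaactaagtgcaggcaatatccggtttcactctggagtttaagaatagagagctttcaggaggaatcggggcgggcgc
The match starts 59 bases before the start of Gbp2, 165 before that of Gbp5 and 53 before that of Gbp7. Gbp2 had 67.6 CPM in PD00, 87.0 in Model and 56.7 in Control (Model over Control 1.54, 1.15 to 2.06), and Gbp5 had 45.0, 41.1 and 10.3 (4.01, 2.28 to 7.29). Of these, Gbp7 was lower in PD00 than in Model at 0.425 (0.342 to 0.525), and the other two were not called.

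Genes of antigen presentation were measured in both classes. Of 16 measured class I genes, 5 were higher and 0 lower in Model than in Control (median 0.39), against 4.23% higher among all genes, and 6 of 15 were lower in PD00 than in Model (median -0.49), against 4.41%. Leukocytes gave medians of 0.37 and -0.41 for the same comparisons. B2m, the light chain of class I molecules, had 3061 CPM in PD00, 4004 in Model and 2541 in Control (Model over Control 1.58, 1.51 to 1.64), and it was also higher in Model in Gpihbp1-poor cells at 1.69 (1.52 to 1.89), the single one of 11 class I genes measured there that was called (median 0.01). In PD00 against Model 0 of 7 were called in Gpihbp1-poor cells (median -0.11). Psmb9, an immunoproteasome subunit, had 118 CPM in PD00, 246 in Model and 182 in Control, and was lower in PD00 than in Model at 0.481. Of 8 measured class II genes, 7 were higher in Model than in Control (median 0.89) and 5 of 6 lower in PD00 than in Model (median -1.34). Cd74, the class II invariant chain, had 327 CPM in PD00, 815 in Model and 550 in Control, against 2877, 3628 and 1859 in leukocytes, all above its level in Car4+ Ednrb+ cells. The class II median in leukocyte-gene-limited cells was -0.68 for PD00 against Model, 0.63 for PD00 against Control (-0.67 over all Car4+ Ednrb+ cells) and 1.51 for Model against Control, and the Cd74 log2 ratio for PD00 over Control was 0.59. In Gpihbp1-poor cells Cd74 had 25 UMIs in PD00, 32 in Model and 44 in Control, with no ratio called.

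Cyp1a1 and Tiparp, targets of the aryl hydrocarbon receptor, which is a ligand-activated factor that senses foreign and dietary compounds, were among the genes lower in Model. Cyp1a1, the xenobiotic-metabolising monooxygenase and classic target of that receptor (chr9:57687928-57703824, plus strand), had 170 CPM in PD00, 122 in Model and 660 in Control, with ratios of 0.185 for Model over Control (0.153 to 0.223) and 0.258 for PD00 over Control (0.212 to 0.311). In Gpihbp1-poor cells it had 21 UMIs in PD00, 14 in Model and 102 in Control (Model over Control 0.173, 0.0915 to 0.304), and in general capillary cells 55, 24 and 372 (0.226, 0.143 to 0.342). Leukocytes held at most 1.39 CPM. The Cyp1a1 loss was thus found in Gpihbp1-poor, general capillary and all Car4+ Ednrb+ cells of Model and PD00.

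Tiparp, a mono-ADP-ribosyltransferase that the same receptor induces and that represses it (chr3:65528410-65555518, plus strand), had 297 CPM in PD00, 137 in Model and 467 in Control. Its ratio was 0.293 for Model over Control (0.243 to 0.351) and 2.17 for PD00 over Model (1.74 to 2.71), but in Gpihbp1-poor cells it had 9 UMIs in PD00, 17 in Model and 88 in Control, a PD00 over Model ratio of 0.805 (0.316 to 1.91). In leukocyte-gene-limited cells the Tiparp log2 ratio was -0.99 for Model over Control and -0.16 for PD00 over Control. Ahr itself, at 210 CPM in PD00, 262 in Model and 186 in Control, was not called. The receptor's genes were listed after values had been seen, and 4 of 9 were measured. Of these, Cyp1a1 and Tiparp were the 2 called lower in Model, against 6.75% of all genes.

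Other genes lower in Model were spread over several functions. Ctla2a, an inhibitor of cysteine proteases, had 1570 CPM in PD00, 1176 in Model and 2364 in Control (Model over Control 0.497, 0.466 to 0.530), and the ratio was 0.534 in Gpihbp1-poor and 0.580 in general capillary cells. Ier3, a stress-induced regulator of survival, had 999 CPM in PD00, 791 in Model and 1567 in Control (0.505, 0.466 to 0.546). Fam174b, a membrane protein, had 22.5 CPM in PD00, 15.7 in Model and 55.6 in Control (0.281, 0.155 to 0.479), with 1 UMI in PD00, 4 in Model and 29 in Control in Gpihbp1-poor cells. Fam174b there is under the minimum for a call, and Ctla2a and Ier3 (0.445, 0.326 to 0.601) were called lower in Gpihbp1-poor cells. Grp, gastrin-releasing peptide, had 35.2 CPM in PD00, 3.91 in Model and 44.8 in Control (0.0873, 0.0232 to 0.232). Ackr3, an atypical chemokine receptor, had 38.0 CPM in PD00, 12.7 in Model and 52.4 in Control (0.243), and Esm1, the proteoglycan endocan, had 7.04, 11.7 and 48.0 (0.244). Grp, Ackr3 and Esm1 had 0 to 3 UMIs in the Gpihbp1-poor cells of each library and describe the Gpihbp1-rich cells.

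Some nuclear genes of oxidative phosphorylation were called lower in PD00 and Model than in Control, and none higher. Of 69 measured, 11 were lower and 0 higher in Model than in Control (median -0.35, against -0.07 for all genes), against 6.75% lower among all genes. In PD00 18 were lower than in Control (median -0.42), against 9.52% lower and 5.30% higher among the 6473 genes measured there. Uqcrb, a subunit of complex III, had 176 CPM in PD00, 172 in Model and 281 in Control, and Atp5d, a subunit of ATP synthase, had 103, 146 and 228. Cox4i1 of complex IV, with 436 CPM in PD00, 470 in Model and 532 in Control, was not called. In Gpihbp1-poor cells 23 of 45 were lower in Model than in Control (median -0.65, against -0.21 for all genes there), and in general capillary cells 26 of 62 (median -0.64, against -0.23). Among all genes 19.1% were lower in the Gpihbp1-poor and 14.7% in the general capillary cells. Leukocytes of the same libraries had a median of 0.05 in Model against Control, against -0.09 for all leukocyte genes. Of 69 measured in leukocytes 0 were called, and the share over all leukocyte genes was not calculated. The 13 mitochondrially encoded genes had a median of 0.06 with none called. Ribosomal protein genes took 7.42% of UMIs in PD00, 6.85% in Model and 8.90% in Control in Car4+ Ednrb+ cells, and 13.0%, 12.9% and 17.8% in leukocytes, and their part in the result was not tested. Glutathione and antioxidant genes had a median of -0.21 in Model against Control. In Gpihbp1-poor cells 5 of 7 measured were lower (median -0.79), against 19.1% of all genes there. In leukocytes their median was -0.29, against -0.09 for all genes, with 7 of 24 lower and no share over all genes calculated.

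The comparison of PD00 with Model bears on the peptidomimetic. Of 5188 genes, 217 were higher (4.18%) and 229 lower (4.41%) in PD00 than in Model, and in the Gpihbp1-poor cells 82 (8.64%) and 71 (7.48%) of 949. In general capillary cells 11.1% of 1328 genes were higher and 4.37% lower. Of the gene lists, glucocorticoid-responsive genes had the most members called higher in PD00: 7 of 13 measured were higher and 0 lower (median 0.76). In Model against Control 0 were higher and 3 lower (median -0.26), against 4.23% higher and 6.75% lower among all genes. Fkbp5, a co-chaperone of the glucocorticoid receptor (chr17:28399094-28517527, minus strand), had 67.6 CPM in PD00, 8.80 in Model and 9.18 in Control, a PD00 over Model ratio of 7.67 (3.72 to 17.8). Zbtb16, the transcription factor PLZF (chr9:48654297-48836222, minus strand), had 367 CPM in PD00, 113 in Model and 135 in Control (PD00 over Model 3.27, 2.61 to 4.10). Tsc22d3, known as GILZ, the glucocorticoid-induced leucine zipper, had 383 CPM in PD00, 202 in Model and 209 in Control (1.90, 1.58 to 2.29). In all 3 genes Model and Control lay within 1.5-fold of each other and PD00 stood above both.

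In Gpihbp1-poor cells Zbtb16 had 49 UMIs in PD00, 17 in Model and 19 in Control, in 22, 11 and 14 cells, with a PD00 over Model ratio of 4.38 (2.48 to 8.12). Tsc22d3 had 54 UMIs in PD00, 30 in Model and 49 in Control there (2.74, 1.72 to 4.43), and Cdkn1a, the inhibitor p21 of cell cycle kinases, had 97, 86 and 137 (1.72, 1.27 to 2.32). Fkbp5 had 1, 1 and 2 UMIs in the Gpihbp1-poor cells of PD00, Model and Control, so its gain was not detectable there. General capillary cells gave PD00 over Model ratios of 3.36 (2.04 to 5.82) for Zbtb16 and 2.44 (1.46 to 4.29) for Tsc22d3. Klf9, another glucocorticoid target, had 629 CPM in PD00, 340 in Model and 559 in Control, and so differed from the others in that Model lay lowest and PD00 near Control, at 1.12 (1.0 to 1.26). Per1, of the circadian clock, was higher in PD00 at 74.6 CPM, against 44.0 in Model and 48.0 in Control. In leukocytes the list had a median of 0.14 in PD00 against Model, against 0.01 for all genes. There 4 of 17 were higher and 1 lower, and the share over all leukocyte genes was not calculated. Fkbp5 was among these, with 47.5 CPM in PD00, 21.0 in Model and 22.7 in Control.

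**Figure D4:**
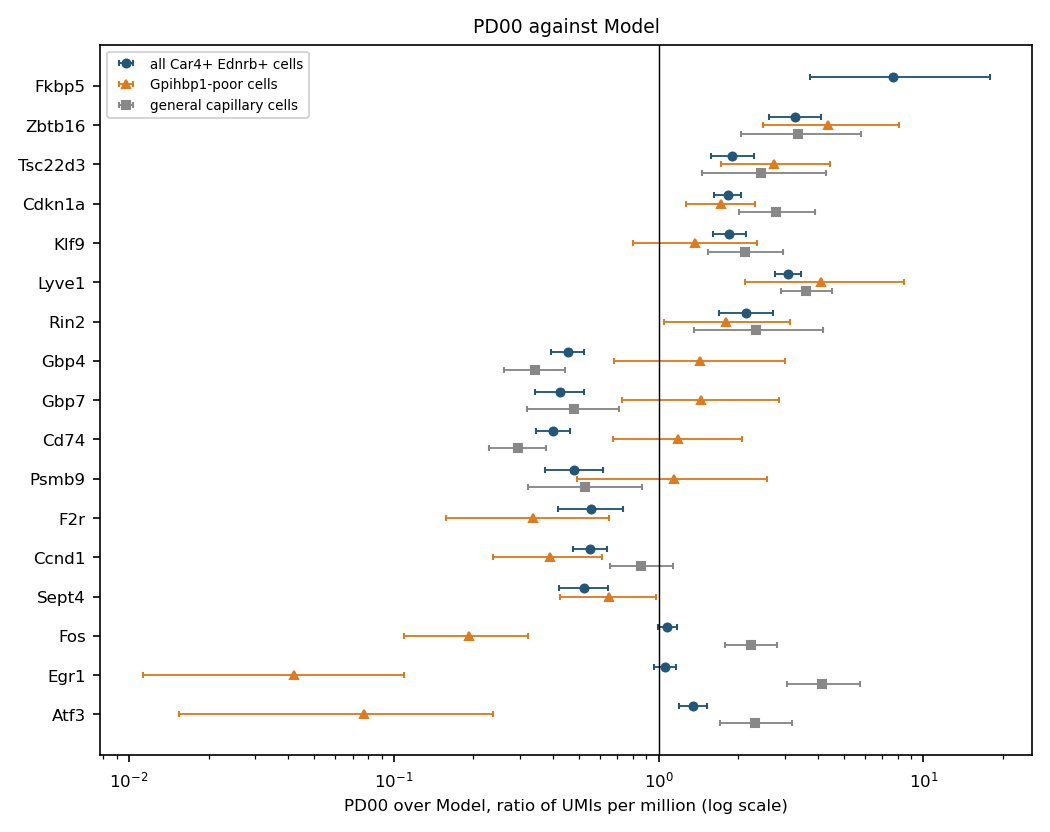
Ratios of CPM, PD00 over Model (log axis, 1 marked by a line), with exact 95% counting intervals for all Car4+ Ednrb+ cells, Gpihbp1-poor cells and general capillary cells; genes with few UMIs or a count of 0 in a cell group have no point there. Zbtb16 and Tsc22d3 are above 1 in all 3 cell groups, and Egr1, Fos and Atf3 are below 1 in Gpihbp1-poor cells (0.0420, 0.193 and 0.0773) and above 1 in general capillary cells.

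Among single genes, Lyve1, a hyaluronan receptor best known from lymphatic vessels (chr7:110850607-110863239, minus strand), had 1427 CPM in PD00, 463 in Model and 633 in Control, with PD00 over Model at 3.08 (2.76 to 3.45). It was detected in 70.0% of the cells in PD00, 53.2% in Model and 66.7% in Control, and in general capillary cells it was higher in PD00 too, at 3.6 (2.91 to 4.51). Gpihbp1-poor cells held 35 UMIs in PD00, 13 in Model and 19 in Control, and PD00 over Control was called there at 3.54 (1.97 to 6.54). The lymphatic marker list summed to 132 CPM in PD00, 104 in Model and 114 in Control, and that list does not hold Lyve1. Map3k6, a stress-activated kinase, had 63.3 CPM in PD00, 10.8 in Model and 22.1 in Control (5.89, 3.00 to 12.6). Rin2, which activates the endocytic GTPase Rab5, had 258 CPM in PD00, 120 in Model and 109 in Control, and was higher in PD00 than in Model at 2.14 over all Car4+ Ednrb+ cells and 1.80 (1.05 to 3.13) in Gpihbp1-poor cells.

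Qsox1, a sulfhydryl oxidase of the secretory pathway, had 194 CPM in PD00, 75.3 in Model and 56.1 in Control (PD00 over Model 2.58, 1.94 to 3.45). Sult1a1, a sulfotransferase of phenols, had 59.1 CPM in PD00, 11.7 in Model and 24.8 in Control (5.04, 2.60 to 10.5), Crybb3, a beta crystallin, 52.1, 16.6 and 30.8 (3.13, 1.72 to 5.93), and Cadm1, an adhesion molecule, 118, 48.9 and 95.5 (2.42, 1.68 to 3.50). These last 3 were also lower in Model than in Control, and had at most 4 UMIs in the Gpihbp1-poor cells of any library, so they describe the Gpihbp1-rich cells.

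Genes lower in PD00 than in Model included Ccnd1, cyclin D1 of the G1 phase, with 363 CPM in PD00, 657 in Model and 564 in Control (0.552, 0.477 to 0.639). In Gpihbp1-poor cells Ccnd1 had 24 UMIs in PD00, 94 in Model and 57 in Control, so that Model was above Control (2.08, 1.48 to 2.94) and PD00 below Model (0.388, 0.237 to 0.613). Tm4sf1, a tetraspanin-like protein of endothelial protrusions, had 263 CPM in PD00, 506 in Model and 546 in Control (PD00 over Model 0.520, 0.438 to 0.616). Gask1b, a secreted Golgi-associated protein, had 19.7 CPM in PD00, 59.7 in Model and 28.1 in Control (0.330, 0.171 to 0.597) and 0 UMIs in Gpihbp1-poor cells. Of these, Ccnd1 was called lower in PD00 in both the Gpihbp1-poor cells and the whole, and Tm4sf1 in Gpihbp1-poor cells held 43 UMIs over both sums, under the minimum.

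Immediate-early genes, transcription factors induced rapidly by growth signals and stress, differed between the Gpihbp1-poor cells and the rest. Over all Car4+ Ednrb+ cells 0 of 17 measured were called in PD00 against Model (median 0.10, and -0.17 with each cell given equal weight). In Gpihbp1-poor cells, however, 8 of 12 were lower (median -1.01), against 7.48% of all genes there, and the list summed to 4235 CPM in PD00, 8618 in Model and 10010 in Control. Egr1, a zinc-finger transcription factor, had 4 UMIs in the 27 Gpihbp1-poor cells of PD00, 145 in the 34 of Model and 144 in the 38 of Control, a PD00 over Model ratio of 0.0420 (0.0113 to 0.110). Fos had 17 UMIs in PD00, 134 in Model and 155 in Control (0.193, 0.109 to 0.321), and Atf3 had 3, 59 and 129 (0.0773, 0.0155 to 0.237). The UMIs lay in few cells: Egr1 in 3, 15 and 13 cells of PD00, Model and Control, and Fos in 6, 13 and 18. Jun did not follow, with 175 UMIs in PD00, 324 in Model and 466 in Control and ratios that were not called. In general capillary cells 11 of 13 were higher in PD00 than in Model (median 1.16), against 11.1% of all genes there. In these cells 10 of 15 were lower in Model than in Control (median -0.94), against 14.7%. The difference between the cell groups was not tested.

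PD00 was also set against Control. Of 6473 genes, 343 were higher (5.30%) and 616 lower (9.52%) in PD00, and in Gpihbp1-poor cells 115 (9.43%) and 281 (23%) of 1220. In general capillary cells 8.42% of 2852 genes were higher and 12.6% lower. Scaled by the median of ratios, the counts over all Car4+ Ednrb+ cells were 460 higher and 458 lower. Besides Sema7a, Zbtb16, Lyve1, Qsox1 and Rin2, the clearest gains were Cyp26b1, which inactivates retinoic acid, with 88.7 CPM in PD00, 36.2 in Model and 23.2 in Control (3.82, 2.55 to 5.77), Lrg1, a secreted modulator of TGF-beta signalling, with 83.0, 60.6 and 22.1 (3.75, 2.48 to 5.73), and Vwf with 259, 245 and 104 (2.49, 2.02 to 3.06). Vwf and Cyp26b1 were at 0 to 2 UMIs in the Gpihbp1-poor cells of every library. Among the losses, Ecscr, a regulator of endothelial migration, had 342 CPM in PD00, 553 in Model and 744 in Control (0.459, 0.399 to 0.527), and 0.287 (0.199 to 0.405) in Gpihbp1-poor cells. Cdkn2b, the inhibitor p15 of cyclin-dependent kinases, had 12.7 CPM in PD00, 31.3 in Model and 76.6 in Control (0.165, 0.0740 to 0.323), and 0, 12 and 32 UMIs in Gpihbp1-poor cells. Ecscr, Cdkn2b, Sept4 and Rprml thus shared the order PD00, Model, Control from low to high, also in the Gpihbp1-poor cells. Hsd11b1, which regenerates active glucocorticoid, had 12.7 CPM in PD00, 28.4 in Model and 57.8 in Control (0.219, 0.0976 to 0.432), and Palld, an actin-bundling protein, 8.44, 39.1 and 37.8 (0.224, 0.0793 to 0.511), both with 5 UMIs at most in Gpihbp1-poor cells.

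The signalling axes for which aerocytes are known were described from their own lists. Of 14 measured genes of the VEGF list, 1 was higher and 1 lower in Model than in Control (median 0.05). Among all genes 4.23% were higher and 6.75% lower in that comparison. In PD00 against Model 0 of 12 were higher and 3 lower (median -0.35), against 4.41% lower among all genes. Flt1, the decoy receptor of VEGF-A, had 1191 CPM in PD00, 1095 in Model and 1104 in Control, and Nrp1, a VEGF co-receptor, had 927, 1027 and 1098, none called. Pdgfb, the endothelial growth factor for mural cells, had 281 CPM in PD00, 432 in Model and 323 in Control and was lower in PD00 than in Model at 0.651. Of 6 measured apelin and endothelin genes, Apln and Edn1 were lower in Model than in Control, against 6.75% of all genes. Edn1, the precursor of endothelin, had 255 CPM in PD00, 164 in Model and 356 in Control (Model over Control 0.461) and came almost wholly from the Gpihbp1-rich cells, with 1 UMI in PD00, 0 in Model and 0 in Control in the Gpihbp1-poor. The direction turned in leukocyte-gene-limited cells, with an Edn1 log2 ratio of 0.54 for Model over Control, whose ratio interval holds 1 (0.877 to 2.44), and of 1.11 for PD00 over Control, whose interval does not (1.34 to 3.56). That limit also changes the depth and the part of each library kept, and the cause of the turn was not tested. No junction gene was called in PD00 against Model, at 0 of 15 measured with a median of 0.06. No caveolar gene was called either, at 0 of 13 with a median of 0.12. Among all genes 4.18% were higher and 4.41% lower, so 0 called of so few genes is near that share. Il4ra, the shared receptor chain for interleukins 4 and 13, had 287 CPM in PD00, 332 in Model and 248 in Control, and was called higher in Model in Gpihbp1-poor cells at 1.73, while Il1rl1, the receptor of interleukin 33, had 0 UMIs in every library.

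**Figure D5:**
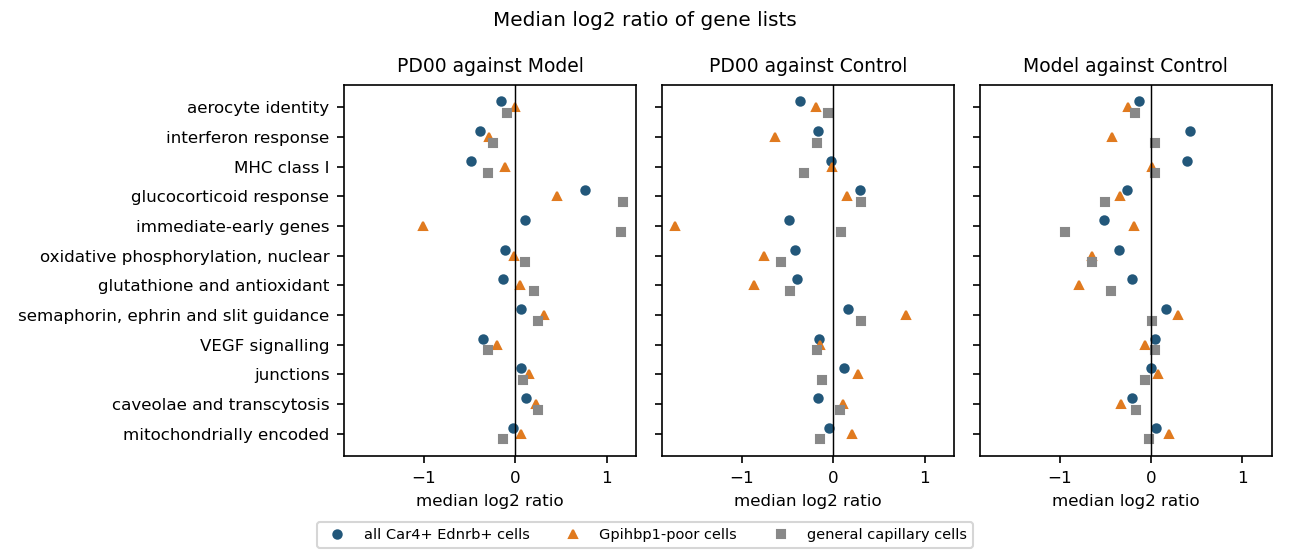
Median log2 ratio of the measured genes of each list for the comparisons of PD00, Model and Control, in all Car4+ Ednrb+ cells, Gpihbp1-poor cells and general capillary cells; lists with too few measured genes in a cell group have no point there. The glucocorticoid list is at 0.76 and the interferon list at -0.39 in PD00 against Model, the oxidative phosphorylation list is at -0.35 in Model against Control, and the immediate-early list is at -1.01 in the Gpihbp1-poor cells of PD00 against Model.

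Other cell types contributed RNA to some sums. Mural markers summed to 110 CPM in PD00, 447 in Model and 226 in Control, and 123 of the 139 Rgs5 UMIs of Model lay in 1 cell. Platelet and erythroid markers summed to 743 CPM in PD00, 2678 in Model and 462 in Control, and 1838 of the 1930 Hbb-bs UMIs of Model lay in 1 cell. Fibroblast markers summed to 1008 CPM in PD00, 916 in Model and 921 in Control, but to 43.2, 39.8 and 40.5 in Gpihbp1-poor cells, and their part in the results was not tested. Haemoglobin genes and Rgs5 are not reported as differences.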

How the data were processed

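Per the file headers, the values are whole-number counts, a UMI count for every gene and barcode over 32285 genes, deposited as the authors obtained them with no scaling. The submitters' processing notes name Cell Ranger 3.1.0, STAR and mm10, and the matrix header names cellranger 5.0.0. The matrices list barcodes that had been called as cells, so free RNA was gauged from leukocytes and not subtracted.

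The filter asked for 500 or more UMIs, 200 or more genes and a mitochondrial share of 20% or less, which kept 9647 cells in PD00, 11537 in Model and 9789 in Control. Doublets were scored with Scrublet (scanpy 1.11.5) and not removed. For each library the UMIs of the selected cells were added up and expressed as CPM. Intervals of ratios are exact conditional-binomial (Clopper-Pearson) at 95%, those of shares exact binomial and those of levels exact Poisson (scipy 1.17.1), with a count of 0 set at 3 counts per sum. UMIs are not independent animals, so these intervals cover counting error only. A gene was measured with at least 50 UMIs over both sums. Depth was 710617 to 1852771 UMIs per sum. No test, p-value or paired analysis was made, as each group is 1 library.

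Mitochondrial, ribosomal protein, haemoglobin, Xist, Y-linked and immunoglobulin genes, unnamed gene models and the genes of the selection were left out of the naming. The named genes are the 8 called genes with interval bounds farthest from 1 in each direction of each comparison, and the identity genes. The first were detected in at least 10% of cells, with at most 25% of UMIs in 1 cell and at least 2 times their leukocyte level, each judged only in the library where the gene was higher. A gene that met this rule is not reported here. For each list described, the 4 measured members with most UMIs and any called member could be named, and a choice of these is given. The members and lists were chosen with earlier results of these data known. The division by Gpihbp1, Plvap, Kit and Aplnr and 2 of the lists (guanylate-binding proteins and aryl hydrocarbon receptor genes) were chosen after values were seen. The matrices lacked 3 listed symbols. The calculation was tested on simulated data. Alternatives changed the cell filters, the selection, the scaling, the UMI minimum, the weight per cell and the limit on leukocyte genes. Gene positions are those of the GRCm38 annotation, and promoter windows those of RefSeq (GRCm38.p6).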

Additional observations from a re-analysis of the deposited data

Results flagged for a closer look

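The immediate-early list went in opposite directions in PD00 against Model between capillary cell groups of the same libraries. Its median log2 ratio was -1.01 in Gpihbp1-poor Car4+ Ednrb+ cells, where 8 of 12 measured genes were lower in PD00, against 7.48% of all genes. It was 1.16 in general capillary cells, where 11 of 13 were higher, against 11.1% of all genes. The difference was not tested, since each treatment has 1 library. In general capillary cells the list summed to 14280 CPM in PD00, 6880 in Model and 13910 in Control, so there the Model library was the low one, while in Gpihbp1-poor cells the PD00 library was. In leukocytes of the same libraries it summed to 6653 CPM in PD00, 6522 in Model and 8599 in Control. In PD00 against Model 0 of 19 genes were called there, and the share over all leukocyte genes was not calculated.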

How the results depend on the processing

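No paired analysis was possible because each treatment has 1 library, and for the same reason no replicate could be left out. The shares of cells changed with the selection. In Gpihbp1-poor cells alone the ratio of shares of all cells was 0.759 for Model against Control and 0.721 for PD00 against Control, and of endothelial cells 0.728 and 0.945.

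Counts of called genes moved with depth and weighting. Giving each cell equal weight gave 497 higher and 1129 lower in Model against Control, 467 and 442 in PD00 against Model, and 592 and 1174 in PD00 against Control. A minimum of 200 UMIs gave 73 and 172, 55 and 42, and 98 and 229 in the same order. Gpihbp1-poor cells alone gave 82 and 268, 82 and 71, and 115 and 281. A minimum of 1 UMI gave 494 higher in Model against Control, 395 lower in PD00 against Model and 515 higher in PD00 against Control. Keeping only cells with at most 2 UMIs over 7 leukocyte genes gave 132 higher in Model against Control, 73 lower in PD00 against Model, and 218 higher and 326 lower in PD00 against Control.

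Some single log2 ratios changed sign. With equal weight per cell these were Acta2 in Model against Control (-0.33), Col3a1 in PD00 against Model (-0.02), and in PD00 against Control C1qa (0.0), Col18a1 (-0.22), Cxcl16 (0.22), H2-Eb1 (0.17) and Mgp (-0.57). With that limit on leukocyte genes they were Edn1 (0.54) and Mest (-0.13) in Model against Control, Gpx3, Model against Control (-2.33), Gpx3 (2.28) in PD00 against Model, and Btg2 (0.12), Cd74 (0.59), H2-Ab1 (0.63), Nfkbia (0.01) and Nfkbiz (0.76) in PD00 against Control. In Gpihbp1-poor cells they were Cd74 (0.25) and H2-T23 (0.08) in PD00 against Model and Cd74 (0.12) in PD00 against Control. With a Car4 minimum of 1 they were Col15a1 (0.02) and Tagln (2.53) in PD00 against Model and Fabp5 (0.34) in PD00 against Control. Without 2 Model cells, those with most Hbb-bs and most Rgs5 UMIs, they were Cxcl10 (-0.18), Hba-a1 (-1.62), Hba-a2 (-2.1), Hbb-bs (-1.18), Hbb-bt (-0.88) and Selp (-2.32) in Model against Control, and Cxcl10 (0.03) and Hbb-bs (1.66) in PD00 against Model. Without cells at a Scrublet score of 0.2 or more they were Hba-a1 (-1.67), Hba-a2 (-2.14), Hbb-bs (-1.21) and Hbb-bt (-0.93) in Model against Control and Hbb-bs (1.68) in PD00 against Model. These lists are not complete. With the limit on leukocyte genes Edn1 in PD00 against Control (1.11) and Lyve1 in Model against Control (0.19) also changed sign, though not called over all Car4+ Ednrb+ cells. In Gpihbp1-poor cells Tiparp in PD00 against Model did so too, with UMIs under the minimum for a call. The causes of these changes were not tested.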

Other observations

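Guidance genes, the semaphorins, ephrins and slits that steer vessel growth, had medians above 0 in the Gpihbp1-poor cells of PD00 and Model. Against Control 5 of 9 measured were higher in PD00 (median log2 0.80) and 3 of 11 in Model (median 0.30), against 9.43% and 5.84% of all genes there, with none lower in either. Sema3f, a secreted repellent of vessel sprouts, had 550 CPM in PD00, 452 in Model and 338 in Control over all Car4+ Ednrb+ cells, and Plxna2, a semaphorin receptor, had 197, 139 and 117. Sema3c, a secreted semaphorin, had 566 CPM in PD00, 848 in Model and 640 in Control, and was higher in Model than in Control in Gpihbp1-poor cells at 2.16. Efnb1, an ephrin ligand, had 425 CPM in PD00, 248 in Model and 315 in Control, and was higher in PD00 than in Model at 1.71.

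Of 15 measured basement membrane genes, 5 were higher and 0 lower in Model than in Control (median 0.43), against 4.23% higher among all genes, and 4 of 14 were lower in PD00 than in Model, against 4.41%. In Gpihbp1-poor cells 1 of 6 was higher and 0 lower in Model than in Control (median 0.23), against 5.84% higher among all genes there. In general capillary cells 0 of 9 were called (median -0.17, against -0.23 for all genes there). Among all genes of general capillary cells 4.29% were higher and 14.7% lower, and the difference between the cell groups was not tested. Among genes of coagulation, Plat, the tissue-type plasminogen activator, had 124 CPM in PD00, 46.0 in Model and 39.4 in Control, a PD00 over Model ratio of 2.69, and Thbd, thrombomodulin, had 982, 879 and 661. Sparc, a matrix-binding protein, had a PD00 over Model ratio of 0.561 and a Model over Control ratio of 2.41 in Gpihbp1-poor cells. Each of these values rests on 1 library per treatment.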
